A study of Mus musculus with 9 samples.

Results

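RNA levels of 10 genes that build chondroitin sulfate and heparan sulfate were followed in mouse leukemia cells of the T lineage (T-ALL, acute lymphoblastic leukemia) at 3 levels of a human MYC transgene. The genes were listed by name from the pathway: Xylt2 for the linkage region, Csgalnact1, Csgalnact2, Chsy1 and Chpf for the chondroitin chain, Chst11 and Chst12 for its sulfation, Ext1 and Ext2 for the heparan chain, and Ndst1 for heparan sulfation. They are 10 of the 53380 genes in each table, and 8 of them had enough counts to be tested. The cells were grown in culture and had been derived from tumors of EμSRα-tTA/tet-O-MYC mice on the FVB/N background. In these mice the transactivator tTA is made in lymphoid cells and switches on the MYC transgene unless doxycycline is present. All 9 libraries therefore carried both transgenes, and all were harvested after 48 hours. The groups were MYC on (mock treatment), MYC intermediate (doxycycline at 20 pg/mL in the medium) and MYC off (at 500 pg/mL), with 3 libraries each. There was no group with doxycycline but without the transgenes, so effects of the drug and of MYC loss cannot be told apart.

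Glycosaminoglycans are long, sulfated sugar chains carried by proteoglycans such as the syndecans, the glypicans and serglycin. Synthesis starts when a xylosyltransferase adds xylose to a serine of the core protein, and further enzymes complete a short linkage region. The next sugar decides the type of chain: an N-acetylgalactosamine starts chondroitin sulfate and an N-acetylglucosamine starts heparan sulfate. Dedicated polymerases then extend each chain and sulfotransferases decorate it. In lymphocytes chondroitin sulfate is found on granule serglycin and on surface proteins, and heparan sulfate on syndecans and glypicans, where it binds chemokines and growth factors.

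The transgene followed the labels, with 1260 ± 75.4 CPM (counts scaled to a common library total) in MYC on, 408.3 ± 23.0 CPM at the intermediate dose and 3.785 ± 0.454 CPM in MYC off (each n = 3, SD). Libraries held 18705516 to 39678799 counts, and the log CPM of same-group libraries gave a Pearson's r of 0.990 to 0.998 over genes (genes are no independent replicates). All 10 T lineage markers listed (Cd3d, Cd3e, Lck and others) reached 1 CPM. Their summed level was 6741 to 7055 CPM in MYC on, 9567 to 9845 CPM at the intermediate dose and 10720 to 11010 CPM in MYC off. None of 6 B cell markers reached 1 CPM, and 4 of them were at 0. Of 6 myeloid markers, Csf1r and Itgam reached 1 CPM while Lyz2 and Adgre1 were at 0. The sum of the 6 was 26.9 to 31.3 CPM in MYC on, 32.5 to 36.2 CPM at the intermediate dose and 41.2 to 44.1 CPM in MYC off. Csf1r and Itgam moved in opposite directions, so the sum does not describe a common shift. In MYC off over MYC on the log2 fold change was 2.46 ± 0.13 (SE) for Itgam (edgeR adjusted p = 1.76e-10). For Csf1r it was −0.38 ± 0.08 (edgeR adjusted p = 0.000818). Of 6 stromal markers only Pdgfrb reached 1 CPM and Col3a1, Lum and Dcn were at 0, with sums between 6.48 and 9.50 CPM. What part the shift in these markers has in the results was not tested. In bulk RNA, fewer cells of a type and less RNA per cell cannot be told apart.

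The start sites of 4 of the genes are shown because these genes mark the ends of the range of change described next. Chsy1, Chpf and Xylt2 moved most between MYC on and MYC off, and Ext2 moved least. Each window runs from 250 bases before to 50 bases after the RefSeq start (GRCm38.p6, gene strand). Capitals mark CACGTG, the palindromic E-box sequence that MYC with its partner MAX is known to prefer. The windows lie at chr7:66109242-66109541 (plus strand) for Chsy1, chr2:93822519-93822818 (minus) for Ext2, chr1:75479422-75479721 (minus) for Chpf and chr11:94677444-94677743 (minus) for Xylt2.
Chsy1: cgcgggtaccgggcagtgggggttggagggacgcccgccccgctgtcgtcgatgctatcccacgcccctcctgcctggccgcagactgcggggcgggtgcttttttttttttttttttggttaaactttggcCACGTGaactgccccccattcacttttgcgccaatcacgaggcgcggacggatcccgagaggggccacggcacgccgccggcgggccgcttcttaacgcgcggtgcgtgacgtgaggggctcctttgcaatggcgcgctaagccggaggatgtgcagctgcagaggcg
Ext2: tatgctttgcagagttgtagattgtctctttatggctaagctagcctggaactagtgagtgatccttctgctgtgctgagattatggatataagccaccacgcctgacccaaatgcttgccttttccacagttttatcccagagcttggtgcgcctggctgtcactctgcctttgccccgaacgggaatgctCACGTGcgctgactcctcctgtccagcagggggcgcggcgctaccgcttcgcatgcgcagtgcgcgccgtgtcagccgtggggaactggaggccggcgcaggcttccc
Chpf: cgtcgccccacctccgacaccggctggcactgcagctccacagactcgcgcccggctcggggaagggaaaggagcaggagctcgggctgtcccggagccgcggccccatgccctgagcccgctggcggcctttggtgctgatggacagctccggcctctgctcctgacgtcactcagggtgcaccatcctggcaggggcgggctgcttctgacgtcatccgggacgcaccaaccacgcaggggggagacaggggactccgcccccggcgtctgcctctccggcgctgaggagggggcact
Xylt2: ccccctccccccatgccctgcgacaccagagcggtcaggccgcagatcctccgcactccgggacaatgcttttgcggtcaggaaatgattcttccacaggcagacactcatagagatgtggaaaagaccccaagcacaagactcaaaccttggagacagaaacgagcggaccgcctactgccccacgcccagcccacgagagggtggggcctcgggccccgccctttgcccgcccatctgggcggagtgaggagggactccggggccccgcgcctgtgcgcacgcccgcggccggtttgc
CACGTG occurred 118 bases before the start of Chsy1 and 58 bases before that of Ext2, and in none of the windows of Chpf, Xylt2, Csgalnact2, Chst12 and Chst11. That is 2 of 7 genes with a window (28.6%), against 7.15% of all 32851 windows and 10.3% of the 10944 windows of genes with a mean of at least 1 CPM. These shares are not counted alike. The share of the 7 counts genes and the others count windows, of which a gene such as Csgalnact2 can have several. The 7 also include Chst11, which had no count. How the sequence relates to the size of a change was not tested. The RefSeq window of Chpf lies wholly outside the GENCODE M21 gene (chr1:75474569-75479307, minus strand), so it does not cover the start annotated there. A match is a description of the letters and not of binding, which was not measured here.

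Between MYC on and MYC off the genes differed in both directions. Of the 8 genes tested, Xylt2 and Csgalnact2 rose in MYC off relative to MYC on. Chsy1, Chpf, Chst12, Ext1 and Ndst1 fell. Ext2 was not called. With edgeR's quasi-likelihood test and an adjusted p under 0.01 over 14098 genes, 7 of 8 were called, against 54.9% of all genes tested (27.5% higher and 27.4% lower). The median log2 fold change of the 8 genes was −0.44, beside 0.03 over all genes tested. Libraries of MYC off and MYC on did not overlap for any of the 8 genes, 2 being above and 6 below MYC on, against 37.2% of all genes entirely above and 32.8% entirely below. Of the 9 leave-one-out fits, each called 7 of the 8.

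**Figure D1:**
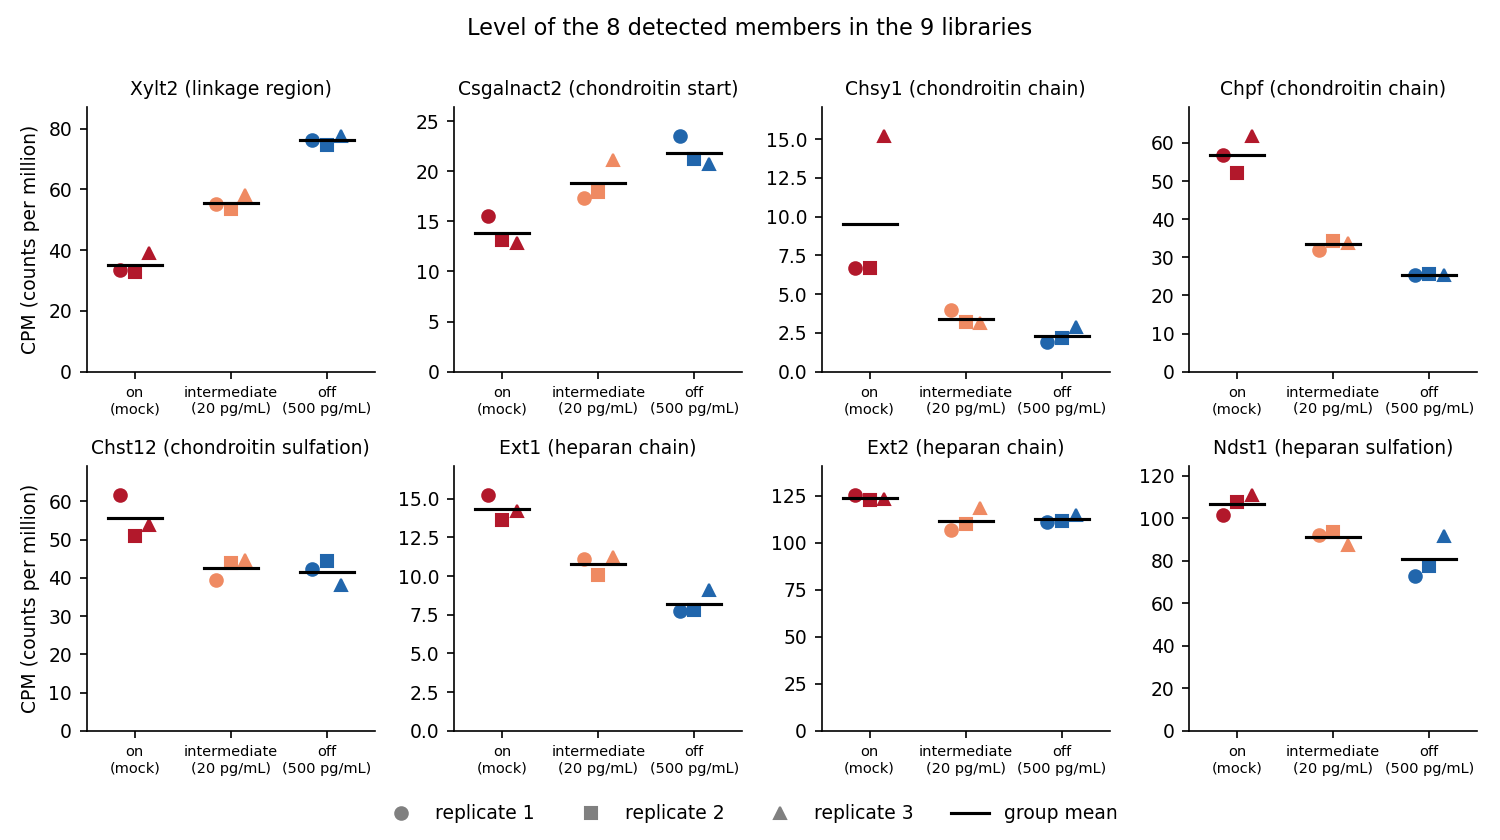
Level of each of the 8 detected genes in the 9 libraries. The vertical axes give CPM from 0 on a separate scale per gene, the horizontal axis gives MYC on, intermediate and off, symbols stand for replicates and lines for group means. Xylt2 and Csgalnact2 are highest in MYC off and the other 6 are highest in MYC on, with 1 MYC on library of Chsy1 at 15.2 CPM, apart from the other two.

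Xylt2 transfers the xylose that starts every chain, and it rose as MYC fell. The gene lies at chr11:94663851-94677515 on the minus strand (mm10) and is protein-coding, as are all 10. It had 33.4, 32.8 and 38.9 CPM in the MYC on libraries, 55.1, 53.6 and 58.1 CPM at the intermediate dose and 76.1, 74.6 and 77.7 CPM in MYC off. The 3 groups did not overlap, and MYC off was the highest. The log2 fold change was 1.08 ± 0.08 (SE) for MYC off over MYC on, with an adjusted p of 6.28e-09 by edgeR, so the MYC off mean was 217% of the MYC on mean. Both steps contributed. MYC intermediate exceeded MYC on by 0.67 ± 0.08 on the log2 scale (edgeR adjusted p = 4.29e-06), and MYC off exceeded MYC intermediate by 0.41 ± 0.07 (edgeR adjusted p = 0.000515). Its only paralog, Xylt1, which catalyzes the same step, had no count in any library.

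Csgalnact2 encodes a transferase that adds the first N-acetylgalactosamine and so commits the linkage region to chondroitin sulfate (chr6:118107452-118139140, minus strand). It had 15.5, 13.2 and 12.9 CPM in MYC on, 17.3, 17.9 and 21.1 CPM at the intermediate dose and 23.6, 21.3 and 20.7 CPM in MYC off. Every library with doxycycline was above every MYC on library, while MYC off and MYC intermediate overlapped. The gene rose by 0.63 ± 0.11 on the log2 scale in MYC off against MYC on (edgeR adjusted p = 0.000114) and by 0.45 ± 0.11 in MYC intermediate against MYC on (0.0034). MYC off and MYC intermediate differed by 0.18 ± 0.11 (edgeR adjusted p = 0.205). The call for MYC intermediate was lost without MYC on replicate 2 (0.41, adjusted p = 0.019), MYC on replicate 3 (0.40, 0.0216) or MYC intermediate replicate 3 (0.37, 0.0156). Csgalnact1, the other enzyme of this step (chr8:68356781-68735146, minus strand), had no count in the 9 libraries, so that its level over all of them was at most 0.0118 CPM.

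Chsy1 and Chpf, whose products together extend the chondroitin chain, showed the 2 largest decreases among the 8 genes tested. Chsy1 is the chondroitin synthase (chr7:66109515-66173798, plus strand), and Chpf is the polymerizing factor that works with it (chr1:75474569-75479307, minus strand). Chsy1 was among the less abundant genes, with 6.69, 6.68 and 15.2 CPM in MYC on, 3.97, 3.18 and 3.13 CPM at the intermediate dose and 1.92, 2.19 and 2.88 CPM in MYC off. MYC on replicate 3, with 447 counts, stood apart from replicates 1 and 2 (136 and 125 counts), yet all MYC on libraries were above all others. The mean in MYC off was 24.4% of that in MYC on, a log2 fold change of −2.10 ± 0.29 (SE, edgeR adjusted p = 9.7e-06). For MYC intermediate over MYC on it was −1.49 ± 0.28 (adjusted p = 0.000397). How far Chsy1 fell rests on 1 library: without MYC on replicate 3 the log2 fold changes were −1.56 ± 0.20 for MYC off over MYC on (adjusted p = 1.01e-05) and −0.94 ± 0.19 for MYC intermediate over MYC on (0.00139). Between MYC off and MYC intermediate the libraries did not overlap, but the difference of −0.62 ± 0.30 was not called (edgeR adjusted p = 0.127).

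Chsy1 shares 148 of its 4176 exonic bases with Gm26827 on the opposite strand, and none of the other 9 genes shares exonic bases with another gene in GENCODE M21. The library kit does not mark strand, and the strand setting of the counting is not given in the sources used here, so reads from the shared stretch cannot be told apart. Gm26827 had 6, 13 and 24 counts in MYC on, 9, 2 and 7 at the intermediate dose and 2, 4 and 6 in MYC off. These are small beside the Chsy1 counts of 136, 125 and 447 in MYC on, 128, 86 and 90 at the intermediate dose and 76, 59 and 91 in MYC off.

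Chpf had 56.8, 52.1 and 61.9 CPM in MYC on, 31.9, 34.4 and 33.8 CPM at the intermediate dose and 25.4, 25.6 and 25.4 CPM in MYC off. The 3 groups were fully separated. Chpf fell by 1.20 ± 0.08 on the log2 scale in MYC off against MYC on (edgeR adjusted p = 2.51e-09), to 44.7% of the MYC on mean. It fell by 0.76 ± 0.08 in MYC intermediate against MYC on (adjusted p = 1.27e-06) and by 0.44 ± 0.08 in MYC off against MYC intermediate (0.00051). Among the 8 genes tested, Chpf and Xylt2 were the 2 whose call held in all 3 comparisons in each leave-one-out fit.

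Chst12 is a sulfotransferase that adds sulfate to N-acetylgalactosamine in chondroitin (chr5:140505550-140525724, plus strand). It had 61.7, 51.1 and 53.9 CPM in MYC on, 39.4, 43.8 and 44.5 CPM at the intermediate dose and 42.3, 44.3 and 38.3 CPM in MYC off. Both doxycycline groups lay below MYC on and overlapped each other. Chst12 fell by 0.45 ± 0.09 in MYC off against MYC on (log2, edgeR adjusted p = 0.000337) and by 0.38 ± 0.09 in MYC intermediate against MYC on (0.00262), while MYC off and MYC intermediate differed by −0.08 ± 0.09 (0.535). The MYC intermediate call was lost without MYC on replicate 1 (−0.29, edgeR adjusted p = 0.0207) or MYC intermediate replicate 1 (−0.33, 0.0103). Chst11, a paralog with the same reaction (chr10:82985498-83195900, plus strand), had no count in any library, with the same limit of 0.0118 CPM.

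Ext1 and Ext2 form the complex that polymerizes heparan sulfate, and Ext1 fell in MYC off while Ext2 was not called. Ext1 (chr15:53064038-53346159, minus strand) had 15.3, 13.6 and 14.2 CPM in MYC on, 11.1, 10.0 and 11.2 CPM at the intermediate dose and 7.71, 7.83 and 9.09 CPM in MYC off, with no overlap between groups. It fell by 0.84 ± 0.11 on the log2 scale in MYC off against MYC on (edgeR adjusted p = 4.34e-06), by 0.40 ± 0.10 in MYC intermediate against MYC on (0.00519) and by 0.44 ± 0.11 in MYC off against MYC intermediate (0.00429). The smaller steps were less secure. The MYC intermediate against MYC on call was lost without MYC on replicate 1 (−0.35, adjusted p = 0.0296), MYC on replicate 3 (−0.41, 0.016) or MYC intermediate replicate 2 (−0.36, 0.0247). The MYC off against MYC intermediate call was lost without MYC intermediate replicate 1 (−0.41, 0.0128) or 3 (−0.42, 0.0124) or MYC off replicate 1 (−0.42, 0.0141) or 2 (−0.40, 0.0235).

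Ext2 (chr2:93661028-93822568, minus strand) had 126, 123 and 123 CPM in MYC on, 107, 110 and 118 CPM at the intermediate dose and 111, 112 and 115 CPM in MYC off. MYC on was above both other groups, which overlapped. The difference was small: −0.17 ± 0.06 for MYC off over MYC on (log2, edgeR adjusted p = 0.0126), −0.14 ± 0.06 for MYC intermediate over MYC on (0.0536) and −0.03 ± 0.05 for MYC off over MYC intermediate (0.66). The first of these lay near the threshold and was called by DESeq2 (−0.18, adjusted p = 0.00886), with RLE size factors (−0.18, 0.00982) and in a fit of the 2 groups alone (−0.19, 0.00419). The log2 ratio of Ext1 to Ext2 counts within a library averaged −3.11 ± 0.06 in MYC on, −3.38 ± 0.09 at the intermediate dose and −3.78 ± 0.10 in MYC off (SD, n = 3 each). Groups did not overlap in this ratio. Each of the 3 differences (−0.67 for MYC off and −0.26 for MYC intermediate, both minus MYC on, and −0.41 between MYC off and MYC intermediate) had p = 0.1 in a two-sided exact permutation test, the smallest p that 3 libraries against 3 allow, and 0.15 after adjustment over 6 ratio comparisons. The same ratio of Chsy1 to Chpf averaged −3.47 ± 0.30 in MYC off and −2.69 ± 0.58 in MYC on (difference −0.78, exact permutation p = 0.1, adjusted 0.15). It was −3.73, −3.55 and −3.14 in the MYC off libraries, against −3.09, −2.96 and −2.02 in the MYC on libraries, where replicate 3 was the highest. The difference was −0.45 without MYC on replicate 3. The MYC intermediate ratio overlapped both other groups, with differences of −0.60 to MYC on (exact permutation p = 0.2, and a difference of −0.26 without MYC on replicate 3) and −0.18 between MYC off and MYC intermediate (0.4). The last was −0.35 without MYC off replicate 3, −0.05 without MYC off replicate 1 and −0.04 without MYC intermediate replicate 1.

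Ndst1 encodes the bifunctional enzyme that removes acetyl groups from the heparan chain and puts sulfate in their place, and it lies on chromosome 18 (60684494 to 60748650, minus strand). It had 101, 108 and 111 CPM in MYC on, 92.2, 93.6 and 87.7 CPM at the intermediate dose and 72.8, 77.6 and 91.9 CPM in MYC off. MYC off replicate 3 lay within the MYC intermediate range, and all MYC on libraries were above all others. Ndst1 fell by 0.44 ± 0.07 on the log2 scale in MYC off against MYC on (edgeR adjusted p = 9.33e-05). The steps of −0.22 ± 0.07 for MYC intermediate over MYC on (adjusted p = 0.0262) and −0.22 ± 0.07 for MYC off over MYC intermediate (0.0291) were not called. Without MYC off replicate 3 the last step was −0.32 and was called (adjusted p = 0.00333).

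**Figure D2:**
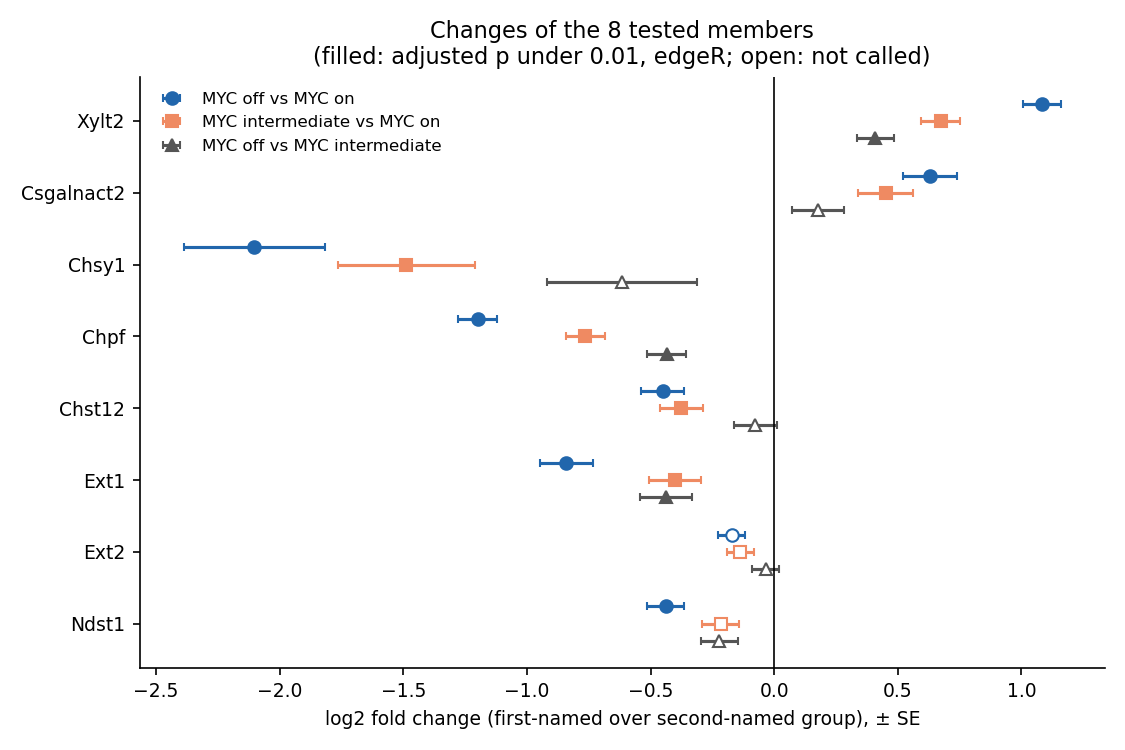
Log2 fold changes with SE of the 8 tested genes in the 3 comparisons (edgeR, filled symbols for an adjusted p under 0.01). Xylt2 and Csgalnact2 lie to the right of 0 and the other 6 genes to the left, from −2.10 for Chsy1 to 1.08 for Xylt2 in MYC off over MYC on.

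At the intermediate dose most of the genes already differed from MYC on. In MYC intermediate against MYC on, Xylt2 and Csgalnact2 were called higher and Chsy1, Chpf, Chst12 and Ext1 lower, which is 6 of 8 against 34.6% of all genes tested (17.4% higher and 17.2% lower). The median of the 8 was −0.30, beside 0.01 over all genes. No gene's MYC intermediate libraries overlapped those of MYC on, with 2 entirely above and 6 entirely below, against 26% and 27.6% of all genes. The number of genes called was 4 to 6 over the leave-one-out fits, being 4 without MYC on replicate 1 or replicate 3, and without replicate 3 only 1 was called higher. Fewer genes were called between the doxycycline groups. In MYC off against MYC intermediate, Xylt2 was called higher and Chpf and Ext1 lower. That is 3 of 8 against 24.7% of all genes (9.95% higher and 14.7% lower), with a median of −0.15 beside 0.01. Libraries did not overlap for Xylt2 (above) and for Chsy1, Chpf and Ext1 (below), against 26.6% of all genes entirely above and 21% entirely below, and they overlapped for the other 4 tested. The number called was 5 with no count filter, which also called Chsy1 (−0.63, edgeR adjusted p = 0.0026) and Ndst1 (−0.24, 0.00971). MYC off and MYC intermediate were both compared with the same MYC on libraries, so these comparisons are not independent.

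None of the 8 genes was called off the midpoint of MYC on and MYC off in MYC intermediate, at an adjusted p under 0.01 in edgeR or DESeq2, against 1.89% of all genes tested (1.7% higher and 0.184% lower). At an unadjusted p under 0.05 in edgeR there was 1 gene. This was Chpf, which lay −0.16 ± 0.07 from the midpoint (edgeR adjusted p = 0.188). MYC intermediate was also placed on a log2 scale with the MYC on level at 0 and the MYC off level at 1. It stood at 0.71 for Chsy1, 0.64 for Chpf and 0.62 for Xylt2, the 3 genes called with an absolute log2 fold change above 1. For the hMYC transgene, from group mean CPM, it stood at 0.194. These positions are descriptions and carry no test against each other. The position of Chsy1 depends on MYC on replicate 3. Without that library its log2 fold changes over MYC on were −1.56 in MYC off and −0.94 in MYC intermediate. Its distance from the midpoint was then −0.16 ± 0.16 (SE), against −0.44 ± 0.25 with all libraries.

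**Figure D3:**
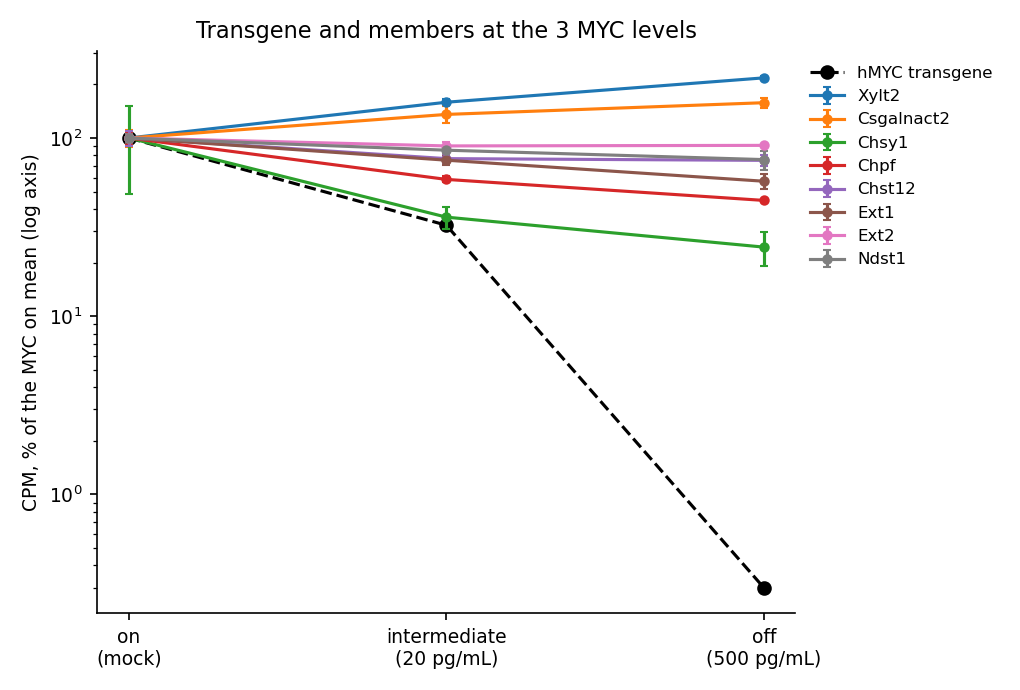
Mean CPM of the hMYC transgene (dashed) and of the 8 genes at each MYC level, as a percentage of the MYC on mean on a log axis; bars are SD over 3 libraries, drawn for the 8 genes. In MYC off the genes lie between 24.4% (Chsy1) and 217% (Xylt2), with the transgene at 3.785 CPM against 1260 CPM in MYC on. In MYC intermediate the genes lie between 36.0% (Chsy1) and 159% (Xylt2), with the transgene at 32.4%.

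Per unit of gene length, the order of the genes differed between the groups. The deposited TPM (scaled to gene length and library total) allow genes to be compared within a group. In MYC on, Chst12 was first at 79.2 ± 7.46 TPM (SD, n = 3), followed by Ndst1 (59.2), Ext2 (56.9), Chpf (49.7), Xylt2 (29.6), Csgalnact2 (8.58), Chsy1 (7.68) and Ext1 (5.98). Ndst1 and Ext2 overlapped there, as did Csgalnact2 with Chsy1 and Chsy1 with Ext1. In MYC intermediate the first 4 were Chst12 at 59.8 ± 5.07 TPM, Ext2 at 50.6 TPM, Ndst1 at 49.8 TPM and Xylt2 at 46.3 TPM, and each overlapped the next. In MYC off, Xylt2 was first at 64.1 ± 1.86 TPM and overlapped Chst12 at 59.0 TPM. Ext2 (51.4 TPM) and Ndst1 (44.6 TPM) overlapped each other, then came Chpf (22.1), Csgalnact2 (13.4), Ext1 (3.41) and Chsy1 (1.87), each clear of its neighbors. Xylt2 thus stood below Chst12, Ndst1, Ext2 and Chpf in MYC on, and level with Chst12 at the top in MYC off. For Ndst1 the length used in the table was 6070 bases where GENCODE M21 has 8279 exonic bases, so its TPM depends on the annotation, and the other 9 lengths were equal.

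**Figure D4:**
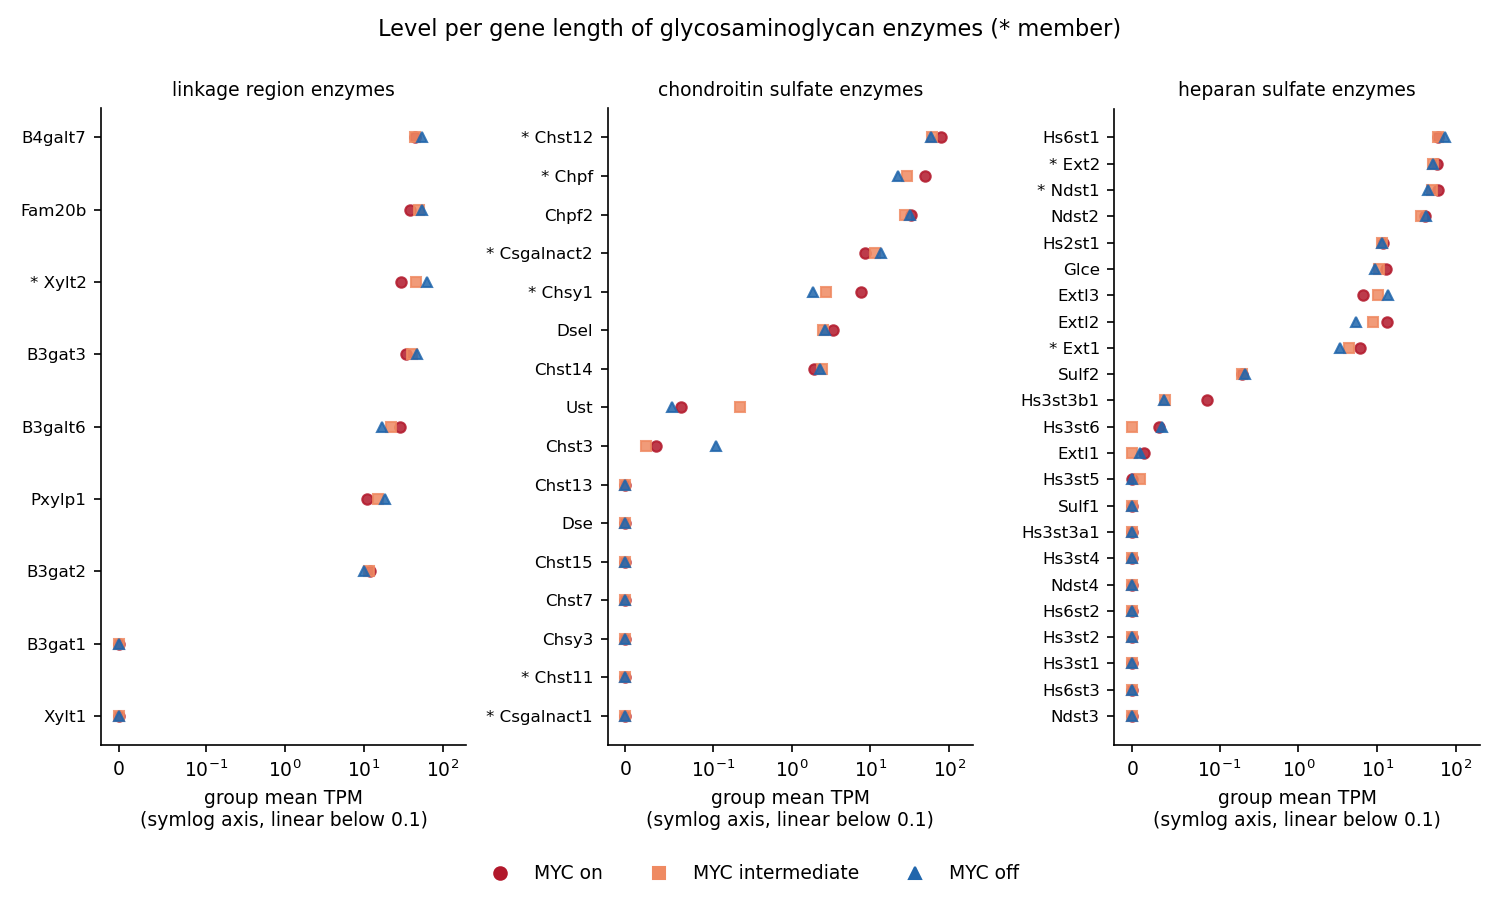
Group mean TPM of linkage region, chondroitin and heparan enzymes, with an asterisk on the 10 genes described here (symlog axis, linear below 0.1 TPM). Csgalnact1 and Chst11 sit at 0 with Xylt1, Chsy3 and others, and Chst12 and Xylt2 reach 79.2 and 64.1 TPM in their highest groups.

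The rest of the pathway was taken as 105 further genes in 6 lists, of which 61 were tested and 29 had no count in any library (7188 of 21865 protein-coding genes had none). In MYC off against MYC on, 15 of the 61 rose, 17 fell and 29 were not called, with a median of −0.01 beside 0.03 over all genes tested. These counts lay near the shares of all genes tested, of which 27.5% were called higher and 27.4% lower. Counts of the single lists below are for this comparison and are to be read beside the same shares. In MYC intermediate against MYC on, 11 rose, 10 fell and 40 were not called, against 17.4% of all genes tested higher and 17.2% lower. In MYC off against MYC intermediate 4 rose, 7 fell and 50 were not called, against 9.95% higher and 14.7% lower. The last comparison called 6 genes without MYC off replicate 2. Several relatives of the 10 genes were at 0, among them Xylt1, B3gat1, Chsy3, Chst7, Chst13, Chst15, Dse, Ndst3 and Ndst4. Xylt2 was expressed where Xylt1 was not, and Ndst1 and Ndst2 where Ndst3 and Ndst4 were not.

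In the linkage region, 3 of 6 tested genes rose in MYC off against MYC on and 1 fell. Pxylp1, which removes the phosphate from the linkage xylose, rose by 0.73 ± 0.08 on the log2 scale (edgeR adjusted p = 7.21e-07). Fam20b, the kinase that adds that phosphate, rose by 0.46 ± 0.06 (8.18e-06), and B3gat3, which completes the region with glucuronic acid, rose by 0.46 ± 0.09 (0.000481). B3galt6, which adds a galactose, fell by 0.81 ± 0.08 (2.17e-07), to 16.1 ± 0.45 CPM in MYC off, against 27.5 ± 0.63 CPM in MYC on (SD, n = 3 each).

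Of 10 other chondroitin and dermatan enzymes, 3 were tested and none was called in MYC off against MYC on by edgeR or DESeq2, with 1 at an unadjusted p under 0.05. These 3 were named after their values were seen. Chpf2, a relative of Chpf, had 53.3 ± 3.15 CPM in MYC off and 54.1 ± 3.84 CPM in MYC on (SD, n = 3 each), with a log2 fold change of −0.06 ± 0.08 (SE). Chst14, a dermatan sulfotransferase, had 1.43 ± 0.25 CPM in MYC off and 1.18 ± 0.20 CPM in MYC on (0.26 ± 0.25). Dsel, a relative of the dermatan epimerase Dse, had 4.53 ± 0.29 CPM in MYC off and 5.81 ± 0.42 CPM in MYC on (−0.39 ± 0.13). A drop like that of Chsy1 and Chpf was not seen in Chpf2, which was not low, and Chst14 and Dsel were low and not called. The rest of this list had too few counts to be tested. Of the other chondroitin genes among the 10, Csgalnact2 was called higher and Chst12 lower, and Csgalnact1 and Chst11 had no count.

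Of 20 heparan enzymes, 7 were tested, and 2 rose and 2 fell in MYC off against MYC on. Extl3, which adds the N-acetylglucosamine that starts a heparan chain, rose by 1.01 ± 0.11 on the log2 scale (edgeR adjusted p = 7.64e-07), to 24.7 ± 0.83 CPM in MYC off, against 12.0 ± 1.20 CPM in MYC on (SD, n = 3 each). Extl2, a related transferase that can cap the linkage region, fell by 1.36 ± 0.13 (2.87e-07), to 5.52 ± 0.65 CPM in MYC off, against 13.8 ± 1.161 CPM in MYC on. Glce, the epimerase of the heparan chain, fell by 0.46 ± 0.09 (0.000301). Hs6st1, a heparan sulfotransferase, rose by 0.28 ± 0.07 (0.00304), a call lost without MYC on replicate 1 (0.24, 0.0209) or 2 (0.23, 0.0226) or MYC off replicate 1 (0.26, 0.0122) or 3 (0.26, 0.0144).

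**Figure D5:**
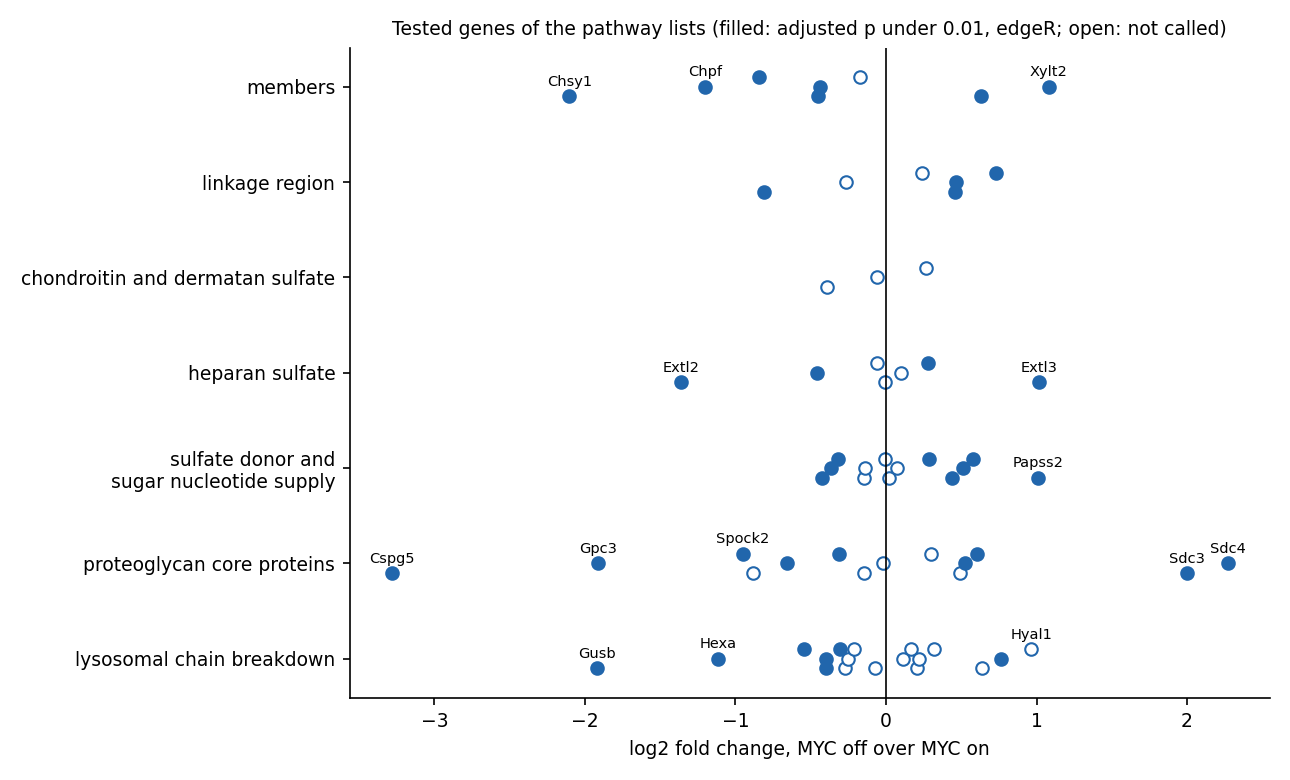
Log2 fold change, MYC off over MYC on, of every tested gene of the 10 described here (top row, "members") and of the 6 wider lists; filled points have an adjusted p under 0.01 in edgeR and the genes with the largest changes are named. Called genes lie on both sides of 0, among them Gpc3 at −1.91, Gusb at −1.92, Sdc3 at 2.00 and Sdc4 at 2.27.

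Sulfation needs the donor PAPS. Of 13 tested genes for sulfate and sugar nucleotide supply, 5 rose and 3 fell in MYC off against MYC on. Papss2 and Papss1, the enzymes that make PAPS, rose by 1.01 ± 0.07 (log2, edgeR adjusted p = 1.9e-09) and 0.51 ± 0.07 (1.76e-05). The PAPS carrier Slc35b3 rose by 0.58 ± 0.09 (3.03e-05), and the sulfate importer Slc26a2 rose by 0.44 ± 0.07 (5.63e-05). Among those that fell, named after their values were seen, were Impad1 (−0.37 ± 0.08, edgeR adjusted p = 0.00122) and Slc35b2 (−0.32 ± 0.06, 0.000145), which is also a PAPS carrier. Papss2 was the one gene of the wider lists called off the midpoint, at 0.34 ± 0.05 above it in MYC intermediate (adjusted p = 0.00213), with 45.7 ± 2.53 CPM in MYC on, 81.2 ± 4.41 CPM at the intermediate dose and 94.1 ± 2.13 CPM with MYC off (SD, n = 3 each).

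Among the core proteins that carry the chains, 4 of 14 tested genes rose and 5 fell in MYC off against MYC on. The syndecans Sdc4 and Sdc3 rose by 2.27 ± 0.13 and 2.00 ± 0.15 on the log2 scale (edgeR adjusted p = 3.65e-10 and 8.75e-09), with Sdc4 at 15.02 ± 0.44 CPM in MYC off, against 3.07 ± 0.58 CPM in MYC on. The glypican Gpc3 fell by 1.91 ± 0.09 (4.07e-11), to 13.2 ± 0.98 CPM in MYC off, against 48.8 ± 2.83 CPM in MYC on. The testican Spock2 fell by 0.95 ± 0.09 (1.08e-07). Syndecans and glypicans did not each share a direction. The syndecan Sdc1 fell by 0.31 ± 0.07 (edgeR adjusted p = 0.000612) and the glypican Gpc1 rose by 0.53 ± 0.07 (4.5e-06). Both were named after their values were seen. Of 18 tested genes of lysosomal chain breakdown, 6 fell. Gusb, the β-glucuronidase, fell by 1.92 ± 0.06 (9.81e-13), the hyaluronidase Hyal2 by 0.55 ± 0.10 (0.000213), and the sulfatase activator Sumf1 by 0.40 ± 0.08 (0.000327). Cspg5 and Hexa, were named after their values were seen, for the size of their change. Both were low, with 0.040 ± 0.049 and 0.609 ± 0.110 CPM in MYC off, against 0.430 ± 0.096 and 1.32 ± 0.157 CPM in MYC on (SD, n = 3 each).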

How the data were processed

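Oligo(dT)-primed cDNA (SMART-Seq v4) of polyadenylated RNA was made into Nextera XT libraries, which do not mark strand. Per the processing notes of the submitters, cutadapt 1.16, STAR 2.5.4b and featureCounts were used with mm10. The annotation release and strand setting are not given in the sources used here. The authors deposited raw counts per gene and TPM, scaled for gene length and library total, in 1 table per library. Symbols and positions came from GENCODE M21 (53274 of 53380 identifiers matched), and promoter windows from RefSeq.

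Counts were tested in R 4.3.3 with edgeR 4.0.16 (quasi-likelihood F test, TMM, default filter, 14098 genes kept, all 9 libraries in 1 fit, group as the only term, two-sided, Benjamini-Hochberg over all genes, called at an adjusted p under 0.01). Fold changes are group named first over group named second, relative to the library total after TMM scaling. Ratios of partner genes were compared by exact permutation. Alternatives were DESeq2 1.42.0, other scalings and filters, a replicate block, fits of 2 groups, an adjusted p under 0.05 and leaving out each library. A level of 0 is given with the limit that 3 counts allow, which covers counting error only, since PCR copies are not independent molecules.

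The 10 genes and the lists were chosen with earlier results of these data known. All 10 are named, and of each wider list up to 4 called genes with the largest change and a mean of at least 5 CPM in 1 group, with exceptions stated. Some genes of the lists are not reported here. Labels do not say that replicates are separate cultures, so the p-values cover the spread between these libraries only. Same-numbered libraries of MYC off and MYC on deviated together over 9946 genes (r = 0.391, 0.267 and 0.233). Those of MYC intermediate and MYC on gave 0.135, −0.193 and −0.17, and those of MYC off and MYC intermediate 0.376, 0.0288 and 0.0849. Differently numbered libraries ranged from −0.406 (MYC off replicate 3 with MYC on replicate 1) to 0.394 (MYC intermediate replicate 2 with MYC on replicate 3). Any pairing by number is thus read from the data and is not clear in all groups, and what a number stands for is not in the labels.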

Additional observations from a re-analysis of the deposited data

How the results depend on the processing

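Of the 8 genes tested, 7 were called in MYC off against MYC on with all libraries and in every leave-one-out fit, and the replicate block (pairing by number) called 7, 6 and 3 in the 3 comparisons, as did the fit without it. In MYC off against MYC intermediate the count was 5 with no count filter and 2 to 4 when leaving out 1 library. For MYC intermediate against MYC on it was 4 to 6. Of the wider lists, 11 genes were called in MYC off against MYC intermediate, 25 at an adjusted p under 0.05, and 6 to 12 with 1 library left out, the 6 being without MYC off replicate 2. The block also called Slc26a2 there (0.24, edgeR adjusted p = 0.00768) and Extl3 (0.35, 0.00702).

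Sign changes occurred only near 0 in results that were not called. With library size alone, Ext2 in MYC off against MYC intermediate was 0.01024, and the distance of MYC intermediate from the midpoint was −0.009574 for Ext1 and −0.02617 for Ndst1. The Ndst1 distance was also −0.01047 with DESeq2, −0.01048 with RLE size factors and −0.000794 with a minimum of 1 CPM. Leaving out 1 library gave −0.05915 to 0.00322 for Ext2, −0.009378 to 0.06031 for Ext1, −0.02181 to 0.05129 for Ndst1 and, for Hs6st1 in MYC intermediate against MYC on, −0.001756 to 0.1355. The cause was not tested. No setting moved the median of all genes by over 0.1 on the log2 scale. Chsy1, with 59 to 128 counts in each doxycycline library, had the fewest counts of the 8 genes.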
